A study of Mus musculus with 4 samples.

Results

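The synaptic vesicle release machinery is the set of proteins that stores transmitter vesicles, docks and primes them at the active zone, fuses them with the plasma membrane when calcium enters, and recovers their membrane. It was followed through 44 genes chosen by name, all of which were among the 12700 genes of the count table. They comprise 10 genes for synapsins and vesicle membrane proteins, 10 for synaptotagmins and Doc2 proteins, 10 for SNARE proteins, complexins and SNARE regulators, 12 for priming factors, active zone scaffolds and Rab3 proteins, and 2 for endocytosis. RNA was sequenced from mice with mucopolysaccharidosis II, or Hunter syndrome, in which disruption of the X-linked gene Ids (Ids-ko) removes the lysosomal enzyme iduronate 2-sulfatase, and from wild type littermates (wt). All mice were C57BL/6 and 9 months old, and the RNA of 7 mice was pooled for each condition. The pooling leaves no value for a single animal. The areas were the cerebral cortex (Cx) and the midbrain, diencephalon and hippocampus (M, in which the striatum was included). Each condition gave 1 library, CxH and MH from Ids-ko and CxWT and MWT from wt mice, so the study asked which genes differed between genotypes in each area without any replicate of a condition.

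In neurons, a vesicle is held near the release site by Rab3 and its effectors, is primed by Munc13 and RIM proteins, and fuses when the vesicle SNARE synaptobrevin zips together with syntaxin 1 and SNAP-25 on the plasma membrane. Complexins clamp and then aid this fusion, and synaptotagmins sense the calcium that sets it off. Most of these proteins exist as several paralogues, and neuron types of the cortex, thalamus and brainstem are known to use different ones.

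The libraries held 16380080 to 23475080 reads on genes, and the 44 genes took 1.73% to 1.95% of them, with 113 to 43401 reads for a gene in a library. The level is given in RPM, reads for every 1000000 aligned reads. Markers in the libraries went against part of the labels, so each library is named below only by its label. Ids (chromosome X, 67596244 to 67618260) had 135 RPM in CxH and 155 in the library labelled MWT, against 354 in CxWT and 368 in the library labelled MH, with log2 ratios of Ids-ko to wt of -1.39 ± 0.024 in Cx and 1.24 ± 0.025 in M. Of the genes of cortical projection neurons, 16 of 16 were measured and their summed level was 2713 RPM in CxH, 467 in the library labelled CxWT, 2392 in the library labelled MH and 374 in MWT. Of the genes of midbrain, thalamic and hypothalamic neurons, 19 of 22 were measured, with sums of 59.6, 670.3, 75.8 and 592 RPM in the same order. Among the latter, En1, a transcription factor of midbrain dopamine neurons, had 1 read in CxH and 0 in MH, against 273 in CxWT and 126 in MWT. The sums of both area lists were thus alike in CxH and MH and alike in CxWT and MWT, while the Ids level was low in CxH and MWT. Oligodendrocyte genes (12 of 12 measured) summed to 5261, 9871, 5416 and 8089 RPM, and pan-neuronal genes (15 of 15) to 3706, 4077, 3563 and 3434 RPM. Over the 4 libraries, the sums ran from 804 to 1039 RPM for GABAergic interneuron genes and from 3166 to 4177 for astrocyte genes. They ran from 436 to 788 for microglial genes and from 198 to 262 for endothelial and mural genes. By the thresholds given below, 5 of the 10 GABAergic genes were called higher and 1 lower in Cx (9.46% and 11.5% of all genes). In M, 4 were called higher and 3 lower (12.3% and 12.7%). In both comparisons of a library labelled Ids-ko with one labelled wt, the area markers differed together with the release genes. Their part in the ratios was not tested. In such bulk tissue, fewer cells of a type and less RNA per cell cannot be told apart.

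Between the libraries labelled Ids-ko and wt, 26 of the 44 release genes were called in neither area, beside 67.3% of all genes, and 6 in a single area. The other 12 were called in the same direction in both areas, 7 higher and 5 lower, beside 6.23% and 6.46% of all genes, and were often 1 paralogue of a family without the others. The 7 genes were called higher in CxH than in CxWT and also in MH than in MWT. They were the syntaxin Stx1a, the complexins Cplx2 and Cplx3, the vesicle protein gene Sv2b and the active zone genes Bsn, Rims1 and Unc13a. The synaptobrevin Vamp1, the synaptotagmins Syt2 and Syt9, the priming factor Unc13c and Rab3c were called lower in both comparisons. The remaining core of the fusion machine, with Snap25, Nsf, Napb, Cplx1, Syt1 and Rab3a, was called in neither area.

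**Figure D1:**
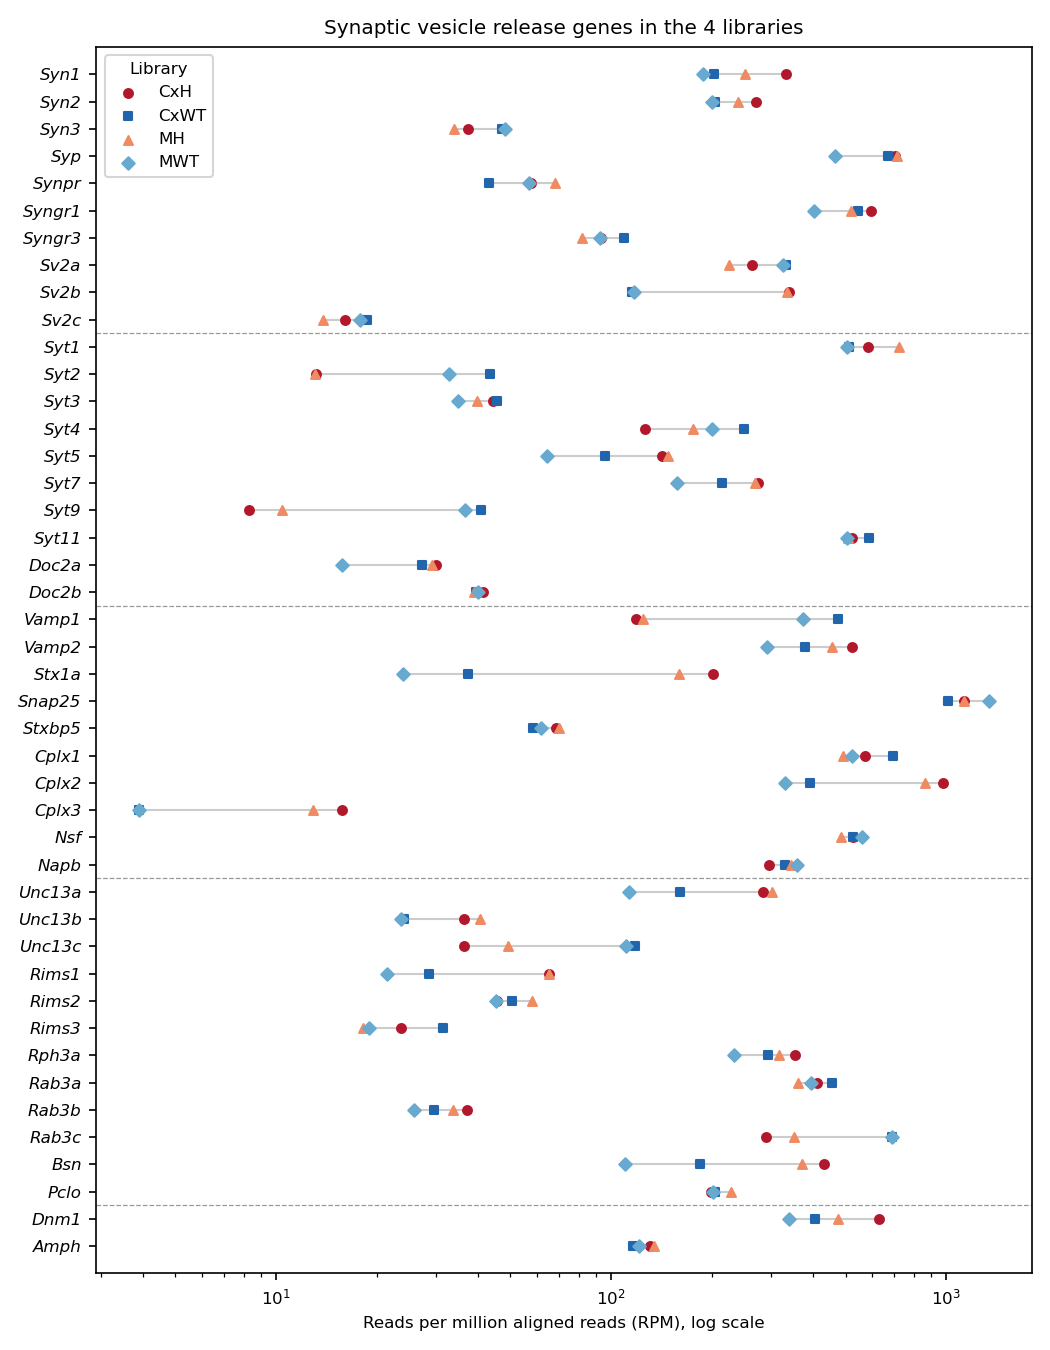
Level of each of the 44 release genes (RPM, log axis) in the 4 libraries, 1 symbol per library, with genes grouped by role from synapsins at the top to endocytosis at the bottom. Grey lines span the 4 values; Stx1a spans 23.8 to 201 RPM, while Nsf spans 486 to 560.4.

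Calls follow the thresholds of the study, a p-value below 0.05 in a Poisson likelihood ratio test together with a log2 ratio of 0.7 or more in size. This test compares the reads of 2 libraries, not the conditions, and each ± is a standard error for counting only. In Cx, 8 of the 44 genes were called higher in CxH than in CxWT, beside 9.46% of all genes, and 6 were called lower, beside 11.5%. In M, 11 were called higher in MH than in MWT, beside 12.3% of all genes, and 5 were called lower, beside 12.7%. The same direction was called in both areas for 7 higher genes, where 6.23% of all genes were so called, and for 5 lower genes, where 6.46% were. No release gene was called in opposite directions, beside 0.543% of all genes. A call in Cx alone was made for 2 genes, beside 7.7% of all genes, a call in M alone for 4, beside 11.7%, and no call in either area for 26, beside 67.3%. The 44 genes had a median log2 ratio of 0.13 (Cx) and 0.22 (M), beside -0.093 and -0.066 over all genes. After a correction for GC content and length, described below with base composition, the medians were 0.033 (Cx) and 0.13 (M), beside -0.093 and -0.061 over all genes. The median size of the ratio, whatever its sign, was 0.35 in Cx and 0.47 in M for the release genes, and 0.34 and 0.40 over all genes. With TMM factors as scaling, the split of the calls over all genes turned from 1201 higher and 1457 lower to 1447 higher and 1135 lower in Cx, and from 1556 and 1614 to 1774 and 1386 in M.

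CxH and MH both lay above CxWT and MWT for 22 release genes and below them for 9, and the sides overlapped for the other 13. Over all genes, 24.3% lay above and 36.9% below. In a fit of all 4 libraries with a genotype and an area term (edgeR quasi-likelihood test, Benjamini-Hochberg adjusted p-value under 0.05 over all genes and a log2 ratio of 0.7 or more in size), 8 release genes were called higher, beside 7.47% of all genes, and 5 lower, beside 7.91%. These were the 12 genes called in both areas and Syt5, with adjusted p-values between 0.000263 for Stx1a and 0.0209 for Syt5. Unc13b, with an adjusted p-value of 0.0285, and Dnm1, with 0.0467, had fitted log2 ratios of 0.69 and 0.56 and so were not called. This fit takes its spread from how far the ratios of the 2 areas differ, moderated over all genes, since no condition had a replicate. The 2 libraries of each labelled genotype also had like area marker sums, and the library labelled MH has more Ids reads than MWT.

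**Figure D2:**
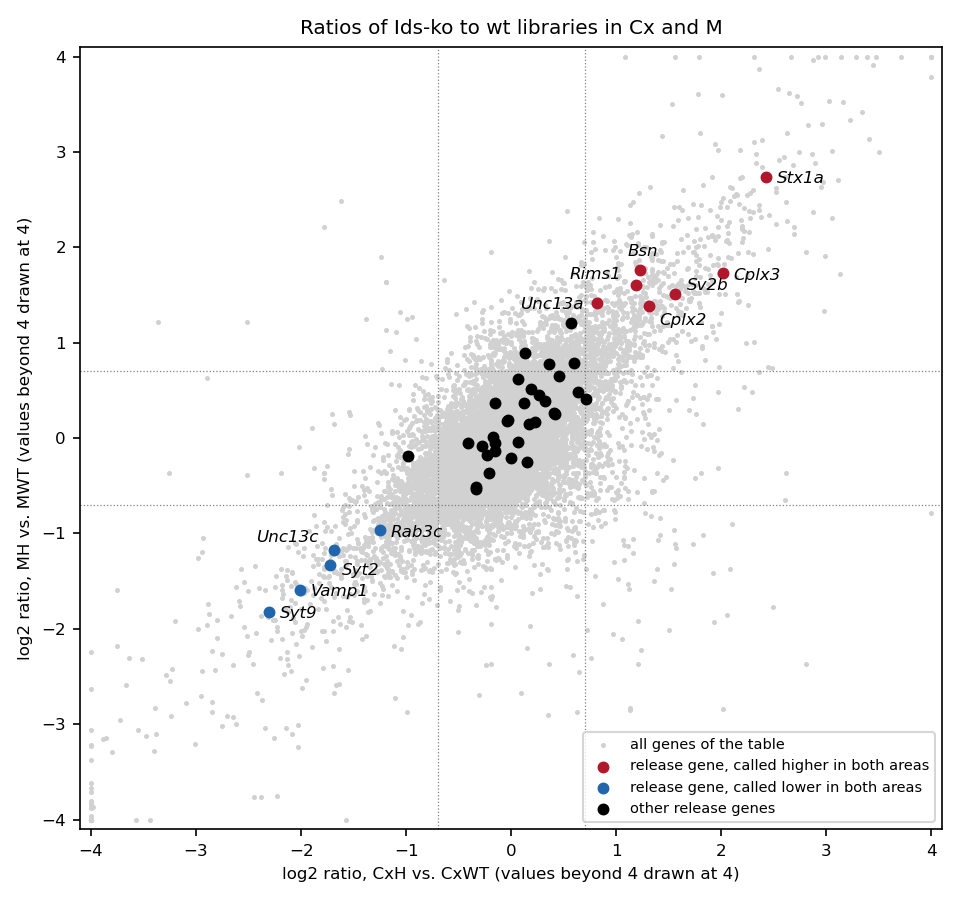
Log2 ratio of CxH to CxWT (x axis) against that of MH to MWT (y axis) for all genes (grey) and the 44 release genes, with dotted lines at the threshold of 0.7. The 7 genes called higher in both areas lie in the upper right corner, the 5 called lower in the lower left, and no release gene lies beyond the threshold in opposite directions.

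Among the SNARE proteins and their regulators, the largest ratio of all 44 genes was that of Stx1a (chromosome 5, 135499352 to 135526970), which encodes syntaxin 1A, the plasma membrane partner of synaptobrevin. Stx1a had 201 RPM in CxH and 159 in MH, against 37.3 in CxWT and 23.8 in MWT. CxH and MH stood well above CxWT and MWT, with a log2 ratio of 2.43 ± 0.044 (Cx) and 2.74 ± 0.058 (M), that is 5.39-fold higher in Cx and 6.69-fold higher in M. Cplx2 (chromosome 13, 54472713 to 54485278), a complexin of forebrain synapses that binds the assembled SNARE complex, had 976 RPM in CxH and 862 in MH, against 393 in CxWT and 330.4 in MWT. Its ratios were 1.31 ± 0.015 (Cx) and 1.38 ± 0.017 (M), and the levels of CxWT and MWT did not overlap those of CxH and MH. Cplx3 (chromosome 9, 57447826 to 57454088), a complexin known from retinal ribbon synapses and from the deepest layer of the cortex, was the least abundant of the 44 genes per length. It had 15.8 RPM in CxH and 12.9 in MH, against 3.90 in CxWT and 3.90 in MWT, from 607, 483, 131 and 113 reads, and ratios of 2.02 ± 0.14 (Cx) and 1.73 ± 0.15 (M). Cplx3 was thus equal between CxWT and MWT and higher in CxH and MH.

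Vamp1 (chromosome 6, 125165569 to 125194561), the synaptobrevin paralogue that is best known from brainstem and spinal cord, went the other way. It had 118 RPM in CxH and 124 in MH, against 476 in CxWT and 375 in MWT, and the ratios were -2.01 ± 0.024 (Cx) and -1.59 ± 0.025 (M), that is 4.03-fold lower in Cx and 3.02-fold lower in M. Its paralogue Vamp2, the main synaptobrevin of the forebrain, had 522 RPM in CxH and 457 in MH, against 379.8 in CxWT and 291 in MWT. The Vamp2 ratios of 0.46 ± 0.016 (Cx) and 0.65 ± 0.019 (M) were above 0 but under the threshold, and with TMM factors the M ratio passed it at 0.71. Snap25, which supplies 2 of the 4 helices of the SNARE bundle, had 1127 RPM in CxH and 1131 in MH, against 1014 in CxWT and 1344 in MWT. The highest Snap25 level was in MWT and the lowest in CxWT, with CxH and MH in between, and its ratios were 0.15 ± 0.010 (Cx) and -0.25 ± 0.010 (M). After the correction for GC content and length the Snap25 ratios were 0.43 (Cx) and 0.19 (M). Cplx1, the complexin known from fast synapses of the brainstem and from interneurons, had 570.3 RPM in CxH and 491 in MH, against 691 in CxWT and 522 in MWT, with ratios of -0.28 ± 0.014 (Cx) and -0.086 ± 0.016 (M). The genes that take the spent SNARE complex apart, Nsf and Napb, had ratios of 0.0019 (Cx) and -0.21 (M) and of -0.15 (Cx) and -0.056 (M), and Stxbp5 (tomosyn), a syntaxin-binding inhibitor of priming, had 0.22 (Cx) and 0.17 (M). Of these 10 genes, 3 were called higher and 1 lower in each area, beside the shares of all genes given above, 9.46% higher and 11.5% lower in Cx and 12.3% and 12.7% in M. Their median ratios were 0.19 (Cx) and 0.058 (M), and after the correction for GC content and length 0.38 (Cx) and 0.20 (M).

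Of the 8 synaptotagmins and 2 Doc2 genes, which hold the calcium sensors of release, none was called higher and 3 were called lower in Cx (9.46% and 11.5% of all genes), and 3 were called higher and 2 lower in M (12.3% and 12.7%). Syt9 (chromosome 7, 114514242 to 114692170), a fast sensor known from limbic and striatal neurons, had 8.29 RPM in CxH and 10.4 in MH, against 40.9 in CxWT and 36.7 in MWT. This was the lowest pair of ratios of all 44 genes, -2.30 ± 0.090 (Cx) and -1.82 ± 0.086 (M), that is 4.94-fold lower in Cx and 3.53-fold lower in M. Syt2 (chromosome 1, 136605877 to 136649726), the fast sensor of hindbrain synapses and of some interneurons, had 13.2 RPM in CxH and 13.1 in MH, against 43.6 in CxWT and 32.9 in MWT. The levels of Syt2 were near each other in CxH and MH and both below those of CxWT and MWT, with ratios of -1.73 ± 0.074 (Cx) and -1.33 ± 0.080 (M). Syt1, the fast sensor of most forebrain synapses, had 584 RPM in CxH and 721 in MH, against 512 in CxWT and 504 in MWT. Its ratios were 0.19 ± 0.015 (Cx) and 0.52 ± 0.015 (M), neither of which was called.

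Several sensors were called in a single area, and whether their ratios differed between areas could not be tested with 1 library for each condition. Syt4, a synaptotagmin whose first calcium-binding domain lacks a key residue, had 126 RPM in CxH and 175 in MH, against 248 in CxWT and 199 in MWT, and was called lower in Cx (-0.98 ± 0.026) but not in M (-0.19 ± 0.026). The correction for GC content and length took the Cx ratio of Syt4 to -0.59, short of a call. Syt5 was called higher in M (1.21 ± 0.039), where its Cx ratio was 0.57 ± 0.032. The slow, high-affinity sensor Syt7 was called higher in M at 0.78 ± 0.026, with 0.35 ± 0.022 in Cx. Doc2a, a high-affinity sensor of spontaneous and asynchronous release, was called higher in M at 0.89 ± 0.081, with 0.13 ± 0.064 in Cx. Neither of these M calls was kept after the correction, which left 0.26 for Syt7 and 0.32 for Doc2a. Syt3, Syt11 and Doc2b were called in neither area, with ratios between -0.17 and 0.19.

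Among the vesicle proteins, Sv2b (chromosome 7, 82259783 to 82454148) was called in both areas, and none of the others was without a correction for GC content and length. It encodes a vesicle glycoprotein of the SV2 family and had 339 RPM in CxH and 334 in MH, against 115 in CxWT and 117 in MWT. Levels were close within each labelled genotype and did not overlap between them, with ratios of 1.55 ± 0.026 (Cx) and 1.51 ± 0.028 (M). Its paralogue Sv2a, which is found at nearly all synapses and is the target of the antiseizure drug levetiracetam, was called in neither area, at 263 RPM in CxH and 225 in MH, against 333 in CxWT and 325 in MWT. CxH and MH were both below CxWT and MWT for Sv2a, with ratios of -0.34 ± 0.020 (Cx) and -0.53 ± 0.022 (M). The correction took the M ratio of Sv2a to -0.83, past the threshold. Syn1, the synapsin that ties vesicles to actin, was called higher in Cx at 0.71 ± 0.022, just past the threshold, and not in M at 0.41 ± 0.025. The Syn1 call in Cx ended after the correction (0.44) and with column totals as scaling, where the ratio fell just under the threshold. Syn2 had ratios of 0.41 (Cx) and 0.26 (M), and Syn3, the synapsin of developing neurons, had -0.34 (Cx) and -0.51 (M). The vesicle tetraspan genes Syp, Synpr, Syngr1 and Syngr3, and Sv2c, a paralogue known from the basal ganglia, had ratios between -0.37 and 0.62 in both areas. The correction raised those of Synpr, the gene of synaptoporin, to 0.88 (Cx) and 0.77 (M), past the threshold in both, where they had been 0.42 and 0.25.

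Of the 12 genes for priming factors, scaffolds and Rab3 proteins, 3 were called higher and 2 lower in both areas, beside 6.23% and 6.46% of all genes. Bsn (chromosome 9, 107998354 to 108092715), the gene for the giant active zone scaffold bassoon, had 431 RPM in CxH and 371 in MH, against 184 in CxWT and 109.7 in MWT. Its level was lowest in MWT and highest in CxH, which were both low in Ids. CxH and MH lay above CxWT and MWT, and the Bsn ratios were 1.23 ± 0.021 (Cx) and 1.76 ± 0.028 (M). The related scaffold piccolo, Pclo, was nearly level, at 199 RPM in CxH and 228 in MH, against 204 in CxWT and 201 in MWT. Rims1 (chromosome 1, 22276332 to 22911673), which encodes RIM1, the scaffold that joins Rab3 on the vesicle to Munc13 and calcium channels, had 65.0 RPM in CxH and 65.4 in MH, against 28.6 in CxWT and 21.5 in MWT, and ratios of 1.19 ± 0.055 (Cx) and 1.61 ± 0.065 (M). Rims2 and Rims3 were called in neither area, with -0.15 (Cx) and 0.36 (M) and with -0.41 (Cx) and -0.056 (M).

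Unc13a (chromosome 8, 74150614 to 74195656), the gene of Munc13-1, the main priming factor of excitatory forebrain synapses, had 283 RPM in CxH and 302 in MH, against 161 in CxWT and 113 in MWT. The ratios of 0.82 ± 0.024 (Cx) and 1.42 ± 0.029 (M) passed the threshold in both areas, though the corrected Cx ratio did not, at 0.55. Unc13c (chromosome 9, 73328677 to 73781374), the gene of Munc13-3, which is best known from the cerebellum, had 36.5 RPM in CxH and 49.2 in MH, against 118 in CxWT and 111 in MWT. It was lower in CxH and MH than in CxWT and MWT, with ratios of -1.69 ± 0.045 (Cx) and -1.17 ± 0.042 (M). Unc13b, the gene of Munc13-2, was called higher in M at 0.78 ± 0.066 and had 0.60 ± 0.064 in Cx. The corrected M ratio of Unc13b was 0.60, under the threshold. Rab3c (chromosome 13, 110844395 to 111071109), one of the vesicle GTPases that bind RIM, had 289 RPM in CxH and 351 in MH, against 686 in CxWT and 687 in MWT. CxWT and MWT were about equal and the ratios were -1.25 ± 0.017 (Cx) and -0.97 ± 0.016 (M). Rab3a, the most abundant of the family per length, was called in neither area, at 410.0 RPM in CxH and 361 in MH, against 456 in CxWT and 395 in MWT. Rab3b had ratios of 0.32 (Cx) and 0.38 (M), and rabphilin, Rph3a, an effector of Rab3, had 0.27 (Cx) and 0.45 (M). The endocytic genes Dnm1, for the dynamin that cuts vesicles off the membrane, and Amph, for its partner amphiphysin, were called in neither area, with 0.64 (Cx) and 0.48 (M) for Dnm1 and 0.17 (Cx) and 0.15 (M) for Amph.

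Read counts of paralogues in 1 library give a comparison that no scaling between libraries can move. The shares were not corrected for GC content, in which paralogues can differ, as Rab3c with 42.1% and Rab3a with 55.0%. Vamp1 took 18.5% of the reads of Vamp1 and Vamp2 together in CxH (95% exact Clopper-Pearson interval 17.99% to 18.97%), 55.6% in CxWT (55.0% to 56.2%), 21.4% in MH (20.8% to 21.9%) and 56.2% in MWT (55.5% to 56.9%). The share of Vamp1 was thus low in CxH and MH and near equality in CxWT and MWT. Cplx1 took 36.9%, 63.8%, 36.3% and 61.2% of the reads of Cplx1 and Cplx2 in CxH, CxWT, MH and MWT. Sv2b took 56.3%, 25.8%, 59.8% and 26.5% of the reads of Sv2b and Sv2a in that order. Here, too, the shares of CxH and MH lay next to each other. Unc13c took 11.4%, 42.3%, 13.99% and 49.5% of the reads of Unc13c and Unc13a. Rims1 took 58.8%, 36.1%, 52.9% and 32.2% of the reads of Rims1 and Rims2, and Rab3c took 41.3%, 60.1%, 49.3% and 63.5% of those of Rab3c and Rab3a. Each of these pairs was taken because it holds a gene called in both areas, from the same reads, so their separation is a description only. Of other pairs with such a gene, Cplx3 took 1.59%, 0.98%, 1.48% and 1.17% of the reads of Cplx3 and Cplx2. Unc13b took 11.4%, 13.0%, 11.8% and 17.3% of those of Unc13b and Unc13a. Counting intervals overlapped between MH and MWT for Cplx3 and between MH and CxWT for Unc13b. Among the 5 pairs computed without such a gene, and in the same order of libraries, Sv2c took 5.76%, 5.31%, 5.78% and 5.18% of the reads of Sv2c and Sv2a, and Syn2 took 44.8%, 50.2%, 48.9% and 51.5% of those of Syn2 and Syn1. Syn3 took 10.1%, 18.9%, 11.9% and 20.4% of the reads of Syn3 and Syn1, and Rab3b took 8.28%, 6.09%, 8.53% and 6.12% of those of Rab3b and Rab3a. Syt4 took 19.5%, 29.7%, 25.6% and 28.3% of the reads of Syt4 and Syt11. CxH and MH were on one side of CxWT and MWT in these 5 pairs too, but the counting intervals of the sides overlapped for Sv2c, and for Syn2 between MH and CxWT. The minor sensors Syt9 and Syt2 took 1.40% and 2.21% beside Syt1 in CxH, 7.40% and 7.85% in CxWT, 1.42% and 1.78% in MH, and 6.79% and 6.13% in MWT. The intervals cover counting error only, and reads that fit both paralogues were not counted by the authors.

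**Figure D3:**
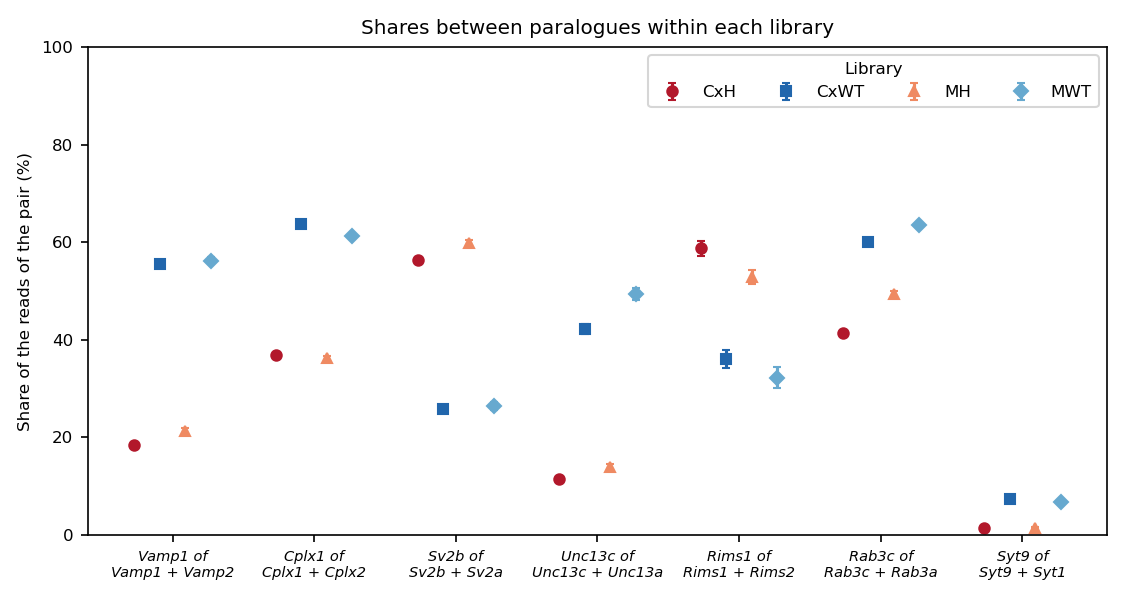
Share of the first gene in the reads of each pair of paralogues (%, y axis) in the 4 libraries, with 95% exact Clopper-Pearson intervals as bars. In each of the 7 pairs drawn, which were taken for a gene called in both areas, CxH and MH lie on one side of CxWT and MWT. For Vamp1 the shares are 18.5% and 21.4% against 55.6% and 56.2%. Not drawn are Cplx3 with Cplx2 and Unc13b with Unc13a, which also hold such a gene and whose intervals overlap between the sides. For Rab3c the shares of CxH (41.3%) and MH (49.3%) are also apart from each other. The log2 ratios between CxH and MH were -0.28 for Rab3c and 0.18 for Rab3a. After the correction for GC content and length they were -0.011 and -0.012.

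The other 4 pairs of libraries share their libraries with the comparisons above and with each other, and their values are given side by side. Between the libraries labelled CxH and MH, whose area marker sums were alike, no release gene was called, beside 3.5% of all genes, and the ratios ran from -0.47 (Syt4) to 0.41 (Syn1). Between CxWT and MWT, the other pair of like marker sums, 3 release genes were called, all higher in CxWT, beside 7.54% of all genes. These were Doc2a (0.80 ± 0.083), Rims3 (0.73 ± 0.076) and Bsn (0.75 ± 0.031). Both pairs set a library with low Ids against one with high Ids. Between CxH and MWT, which had similar Ids levels, 18 release genes were called in either direction, beside 30.7% of all genes. Between MH and CxWT, again with similar Ids levels, 14 were called, beside 15.3%. The 7 genes called higher in both areas had ratios of 1.32 to 3.08 between CxH and MWT and of 0.91 to 2.095 between MH and CxWT. Their ratios were -0.094 to 0.33 between CxH and MH and -0.021 to 0.75 between CxWT and MWT. For the 5 genes called lower in both areas, the ratios were -2.15 to -1.25 between CxH and MWT and -1.98 to -0.97 between MH and CxWT. They were -0.43 to 0.0088 between CxH and MH and -0.00087 to 0.41 between CxWT and MWT. The uncorrected ratios of these 12 genes were thus past the threshold in every pair that set CxH or MH against CxWT or MWT. They were under it in both remaining pairs, apart from Bsn between CxWT and MWT. The genes were chosen by CxH vs. CxWT and MH vs. MWT, and the other pairs reuse these libraries, so this is a description only. After the correction for GC content and length, the lowest ratio of the 7 higher genes was that of Unc13a between CxH and CxWT (0.55) and between CxH and MWT (0.65), both under the threshold, and Bsn fell from 1.97 to 0.84 between CxH and MWT. The 5 lower genes stayed past the threshold in all 4 of those pairs, at -0.85 or lower.

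**Figure D4:**
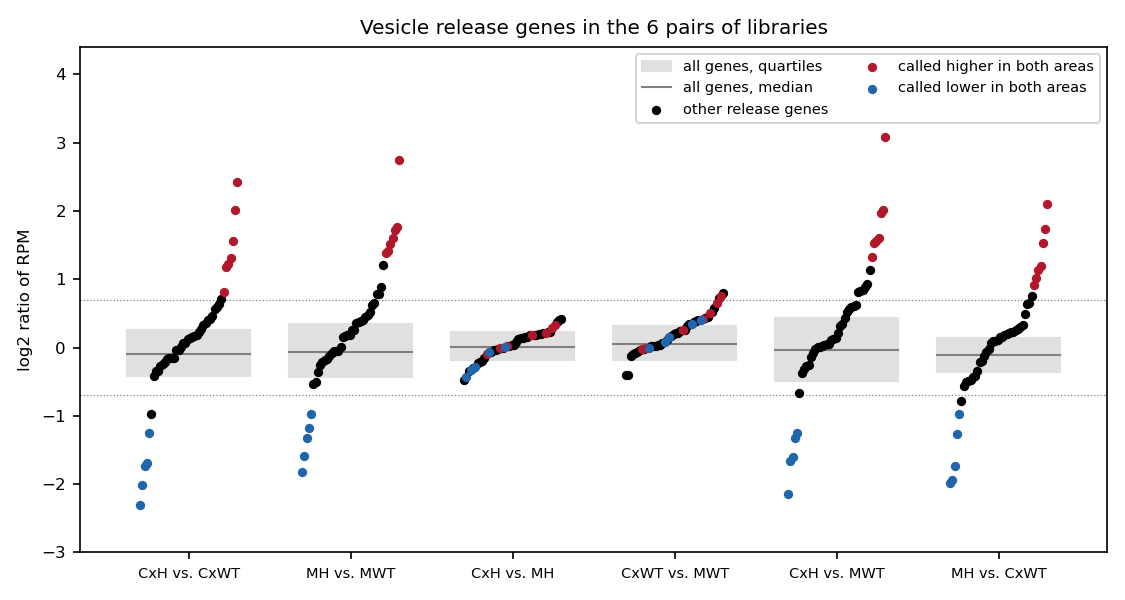
Log2 ratios of RPM (y axis) of the 44 release genes, ordered by size within each of the 6 pairs of libraries, with the quartiles and median of all genes as grey boxes and lines and the threshold of 0.7 as dotted lines. Between CxH and MH all 44 genes lie between -0.47 and 0.41, while in the 4 pairs that set CxH or MH against CxWT or MWT the 7 and 5 genes called in both areas form the ends.

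Levels between genes were compared per length, as RPM per kilobase of the longest protein-coding transcript (RPKM), averaged over the 4 libraries. Snap25 led with 546 RPKM, above 99.9% of all genes with a transcript, followed by Rab3a with 261, Cplx1 with 259.8, Syp with 246 and Vamp2 with 187 RPKM. Syp, the gene of the vesicle protein synaptophysin, had 700.1 RPM in CxH and 714 in MH, against 668 in CxWT and 465 in MWT, so that MWT stood below the other libraries, with ratios of 0.069 ± 0.013 (Cx) and 0.62 ± 0.015 (M). None of these 5 most abundant genes was called in either area. At the low end stood Cplx3 with 3.22 RPKM, Rims3 with 3.54, Syt2 with 3.73 and Sv2c with 3.90 RPKM. The 12 genes called in both areas ranged from Cplx3 to Cplx2, at 130.0 RPKM, and most lay in between, among them Vamp1 at 90.7, Rab3c at 59.2 and Stx1a at 48.7 RPKM.

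The ratios also moved with base composition. Across all genes with a transcript (12354), the rank correlation (Spearman) of the log2 ratio with transcript GC content was 0.43 in Cx and 0.46 in M. Across the 44 release genes it was 0.24 and 0.37, and it was larger between CxH and MH (0.64) and between CxWT and MWT (0.71). These points share their libraries, and genes are not independent replicates. Median GC content was 53.7% for the 7 genes called higher in both areas, 50.9% for the 5 called lower and 51.3% for those called in neither. After a fitted trend in GC content and length was taken out of the ratios, Bsn, with 59.8% GC, fell to 0.80 in Cx and 0.75 in M, and Unc13a to 0.55 in Cx and 0.83 in M, so that Unc13a was no longer called in Cx. Stx1a kept 2.15 in Cx and 2.38 in M, and Vamp1 -2.11 in Cx and -1.70 in M. The 3 genes called between CxWT and MWT fell below the threshold, with corrected ratios of 0.33 for Doc2a, 0.38 for Rims3 and 0.030 for Bsn.

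**Figure D5:**
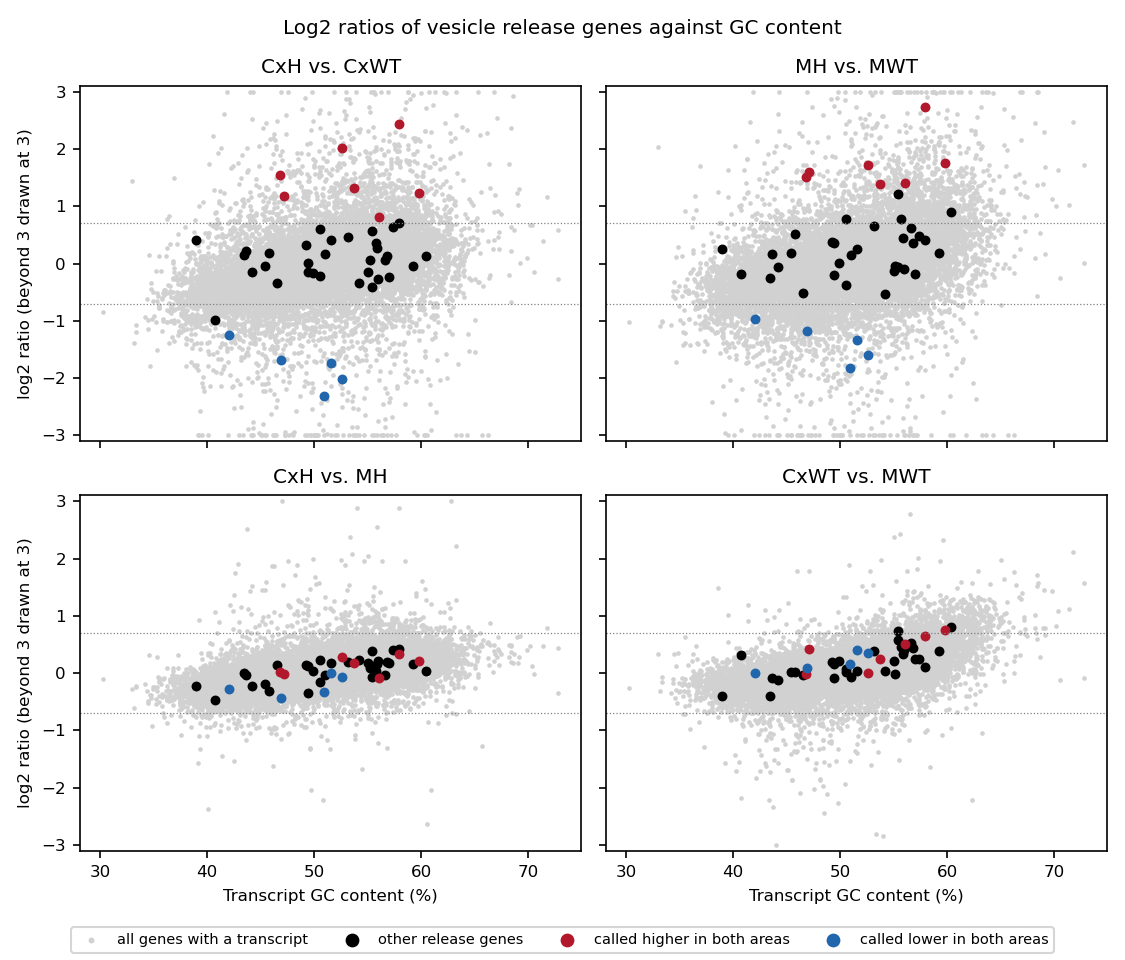
Log2 ratios (y axis) against transcript GC content (%, x axis) in the 4 comparisons of the study, for all genes (grey) and the 44 release genes. In the lower panels (pairs of 1 labelled genotype) the release genes follow the slope of all genes, with rank correlations of 0.64 and 0.71. In the upper panels the genes called in both areas, which were chosen by these same ratios, lie above and below it.

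Promoters of the 2 genes with the highest and the 2 with the lowest mean ratio over both areas are shown, since these had the largest ratios in each direction. They run from 250 bases before to 50 bases after the gene start in RefSeq (table of build GRCm38.p6) and were placed on NCBI37/mm9 by an exact match, which each had once on its chromosome. Capitals mark the letters GGGCGG, the GC box bound by Sp1 family factors, on either strand.
Stx1a, chr5:135499102-135499401, plus strand: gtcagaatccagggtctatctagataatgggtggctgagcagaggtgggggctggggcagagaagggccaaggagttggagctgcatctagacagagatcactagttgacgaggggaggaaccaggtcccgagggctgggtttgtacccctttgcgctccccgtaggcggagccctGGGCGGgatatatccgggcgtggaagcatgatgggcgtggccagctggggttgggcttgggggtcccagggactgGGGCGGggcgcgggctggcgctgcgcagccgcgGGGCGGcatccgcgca
Cplx3, chr9:57454039-57454338, minus strand: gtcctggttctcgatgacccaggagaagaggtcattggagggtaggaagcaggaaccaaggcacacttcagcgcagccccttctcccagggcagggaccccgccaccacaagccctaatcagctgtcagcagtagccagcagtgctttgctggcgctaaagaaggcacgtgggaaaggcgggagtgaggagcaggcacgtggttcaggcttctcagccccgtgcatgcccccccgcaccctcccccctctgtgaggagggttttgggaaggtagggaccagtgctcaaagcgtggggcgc
Syt9, chr7:114514054-114514353, plus strand: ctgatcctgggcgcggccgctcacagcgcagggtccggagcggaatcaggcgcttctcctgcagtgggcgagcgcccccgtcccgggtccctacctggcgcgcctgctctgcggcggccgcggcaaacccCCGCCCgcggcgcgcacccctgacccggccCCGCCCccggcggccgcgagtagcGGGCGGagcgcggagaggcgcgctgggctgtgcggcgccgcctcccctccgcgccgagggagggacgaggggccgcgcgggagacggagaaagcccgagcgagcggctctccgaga
Vamp1, chr6:125165349-125165648, plus strand: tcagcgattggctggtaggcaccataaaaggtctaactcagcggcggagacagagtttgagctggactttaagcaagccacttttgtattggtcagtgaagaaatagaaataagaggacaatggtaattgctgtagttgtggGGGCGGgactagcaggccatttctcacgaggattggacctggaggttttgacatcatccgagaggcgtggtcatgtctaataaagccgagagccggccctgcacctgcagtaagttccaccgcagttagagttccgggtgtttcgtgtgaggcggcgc
The table had entries for 34 of the 44 genes, all but Syn3, Syngr3, Syt4, Syt5, Syt7, Vamp2, Snap25, Rims2, Doc2a and Doc2b, and the first entry was used where a gene had several. Among the 34, 25 promoters held the GC box (73.5%), beside 65.3% of 10086 genes of the count table. It was found for 4 of the 7 genes called higher in both areas and for 5 of the 5 called lower. The other letters searched, on both strands, were TGACGTCA (the cAMP response element), held by 1 of 34 release gene promoters and 3.16% of all, GCATGCGC (the core bound by NRF1), held by 3 and 5.25%, and TATAAA, held by 2 and 6.72%. None of these motifs contains another, and a match describes the window only. The Syt9 promoter had 79.3% GC, that of Stx1a 66.3%, that of Cplx3 62.7% and that of Vamp1 51.7%. The median was 62.3% for the release genes and 61.3% for all genes.

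Other genes of the presynapse were taken from lists of 83 genes, of which 80 were measured. Of these, 10 were called higher and 10 lower in Cx, beside 9.46% and 11.5% of all genes, and 15 higher and 7 lower in M, beside 12.3% and 12.7%. In both areas 8 were called higher and 6 lower, beside 6.23% and 6.46% of all genes, with none in opposite directions (0.543% of all genes) and 52 in neither area (67.3%). After the correction for GC content and length, 6 were called higher and 3 lower in Cx and 10 higher and 6 lower in M, beside 952 and 1196 of all genes in Cx and 998 and 1203 in M. Of those called in both areas, 5 of the 8 higher and 3 of the 6 lower were still called. Rims4 and Syt17 lost the call in Cx, Lin7b in M, Rab27b in Cx and Stxbp3 in both areas, while Vamp7 had no corrected ratio. The median log2 ratios of the 80 genes were -0.029 (Cx) and 0.0078 (M). Synaptotagmins, RIM partners and tethers of the active zone gave 6 higher and 0 lower of 19 in Cx and 8 higher and 0 lower in M, with 4 and 6 higher after the correction. Of those called in both areas, the 3 with the highest mean ratio follow. Rims4, a short RIM paralogue, had 11.2 RPM in CxH and 9.90 in MH, against 6.13 in CxWT and 2.28 in MWT, with ratios of 0.88 ± 0.12 (Cx) and 2.12 ± 0.19 (M), which the correction took to 0.64 (Cx) and 1.65 (M). The liprin gene Ppfia3 had 116 RPM in CxH and 83.6 in MH, against 51.4 in CxWT and 29.7 in MWT, with ratios of 1.18 ± 0.041 (Cx) and 1.49 ± 0.056 (M), which the correction took to 0.84 (Cx) and 0.78 (M). For Syt16 the levels were 49.4 RPM in CxH and 51.6 in MH, against 23.2 in CxWT and 23.6 in MWT, and the ratios 1.09 ± 0.061 (Cx) and 1.13 ± 0.064 (M). In all 3, CxH and MH lay above CxWT and MWT. The vesicle and Rab genes held both directions. Rab3d, a further Rab3 paralogue, had 13.97 RPM in CxH and 12.8 in MH, against 5.15 in CxWT and 5.67 in MWT, and ratios of 1.44 ± 0.13 (Cx) and 1.18 ± 0.13 (M). Sncg, the gene of gamma-synuclein, had 2.65 RPM in CxH and 1.98 in MH, against 19.1 in CxWT and 14.5 in MWT, and the lowest mean ratio of the 80 genes, -2.85 ± 0.15 (Cx) and -2.88 ± 0.18 (M).

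Slc10a4, a vesicle protein known from cholinergic and monoaminergic neurons, had 1.43 RPM in CxH and 0.856 in MH, against 6.81 in CxWT and 7.57 in MWT, from 55, 32, 229 and 219 reads, and ratios of -2.25 ± 0.22 (Cx) and -3.14 ± 0.27 (M). Vamp7, a SNARE of endosomes and lysosomes, had 10.3 RPM in CxH and 10.3 in MH, against 18.3 in CxWT and 29.8 in MWT, and ratios of -0.82 ± 0.093 (Cx) and -1.54 ± 0.088 (M). Rab27b, a GTPase of secretory vesicles, was called lower too, at 20.4 RPM in CxH and 25.02 in MH, against 45.8 in CxWT and 54.2 in MWT, with ratios of -1.17 ± 0.063 (Cx) and -1.12 ± 0.060 (M). The correction took these to -0.68 (Cx) and -0.84 (M), so that the Cx ratio was under the threshold. Among 23 other genes of endocytosis, 1 was called higher and 2 lower in Cx (9.46% and 11.5% of all genes), and 1 higher and 1 lower in M (12.3% and 12.7%), and after the correction 0 higher and 1 lower in each. The lower gene called in both areas was Dnm3, a paralogue of Dnm1, with 106 RPM in CxH and 112 in MH, against 232 in CxWT and 239 in MWT, and ratios of -1.14 ± 0.028 (Cx) and -1.10 ± 0.028 (M). Across these lists the area markers moved together with the ratios, as for the release genes.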

How the data were processed

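Poly(A) RNA pools from 7 mice per condition were sequenced on a SOLiD 3 Plus instrument. The authors aligned the reads to NCBI37/mm9 with PASS 2.10 (best hit, up to 2 mismatches, no gaps) and deposited raw counts per gene, using reads placed on a single gene and keeping genes with more than 50% of the length covered. The annotation behind these counts is not given in the sources used here. Symbols came from a RefSeq table (12690 of 12700 genes), and positions, GC content and length from GENCODE vM1 (12354 genes). RPM used the study's totals of aligned reads, and a count of 0 was set to 1 in ratios. Pairs of libraries were compared over all genes by the Poisson likelihood ratio test, and the fit of 4 libraries used edgeR 4.0.16. DESeq2 1.42.0 gave other size factors. Scripts ran in R 4.3.3 and in Python 3.11.15 with scipy 1.17.1, and were tested on simulated data. The trend in GC content and length was estimated from genes that had 100 or more reads in all 4 libraries.

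The 44 genes and all lists were chosen with earlier results of these data known. Values in all libraries are given for genes called in both areas, for the 5 most abundant per length and, of the other presynaptic genes, for the 5 highest and 5 lowest called in both areas. Those of Sv2a, Syt1, Syt4 and Pclo were added after they were seen. Since each condition had 1 library, no p-value of the likelihood ratio test is printed. Protein sequences were not analysed here. A few genes that these rules would name are not reported here, though they entered the counts and medians.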

Additional observations from a re-analysis of the deposited data

Results flagged for a closer look

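The gene disrupted in the model, Ids, was called in opposite directions in the 2 areas. Its log2 ratio was -1.39 between CxH and CxWT and 1.24 between MH and MWT, and the difference between the areas was not tested, since each condition had 1 library. None of the 44 release genes and none of the 80 other presynaptic genes was called in opposite directions, beside 0.543% of all genes.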

How the results depend on the processing

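The counts of release genes called higher or lower in each area stayed within 1.5 times the reported ones under each of these alternatives (scaling by column totals, TMM factors or DESeq2 size factors, a filter of 10 reads, a log2 threshold of 1, adjusted p-values, the edgeR exact test with an assumed variation of 0.2, 0.5 added to every count, and a correction for GC content and length). The counts called in both areas were recomputed only with TMM factors, with the correction and in the edgeR fit of 4 libraries, and stayed within the same bound. The scalings shifted the ratios of all genes by between -0.061 and 0.093. In Cx the median log2 ratio of the release genes moved from 0.13 to 0.22 with TMM factors, 0.22 with DESeq2 size factors and 0.033 after the correction. In M it moved from 0.22 to 0.16 with column totals, 0.28 with TMM factors, 0.28 with DESeq2 size factors and 0.13 after the correction. Among single genes, no call changed its sign. The correction ended the calls of Syn1, Syt4 and Unc13a in Cx and of Syt7, Doc2a and Unc13b in M (6 in all), and added Synpr in both areas and Sv2a in M. Column totals ended the call of Syn1, while TMM and DESeq2 factors each added Vamp2 in M and Dnm1 in Cx. For the 80 other presynaptic genes the correction, chosen for them after seeing the data, gave 6 called higher and 3 called lower in Cx, against 10 and 10 without it. It gave 5 called higher and 3 called lower in both areas, against 8 and 6. Over all genes it moved the count called higher in M from 1556 to 998. The cause of these changes was not tested. No replicate could be left out, since each condition was 1 library, so the spread between pools stays unmeasured. Each release gene had at least 113 reads in every library, and counting error was at most 0.19 on the log2 scale for any pair.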
